A study of Mus musculus with 9 samples.

Results

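The endothelial and mural cell genes described here are 36 genes that mark the cells of brain blood vessels, of 52636 genes in the count table. They are a given list, 25 endothelial genes, 9 pericyte and smooth muscle (mural) genes and 2 basement membrane collagens, and all 36 were found by mapping the table's Ensembl identifiers to symbols. RNA came from dissociated cells of the nucleus accumbens of male C57BL/6 mice, sorted with a fluorescent antibody to choline acetyltransferase (ChAT), so vessel cells were not the sorted population. Each of the 3 conditions had 3 libraries. The naive mice took no drug, while the mice of the RES and SUS libraries self-administered cocaine, with no more than 40 infusions in the fixed ratio phase and then, at 1.2 mg/kg per infusion, 10 days with 1 progressive ratio session of 23 h each. Before dissociation with papain, which in the cocaine groups was done on day 3 after the last session, all mice were perfused with saline, and punches of 2 to 3 mice were pooled per condition. Nothing in the labels says whether the libraries of a condition came from separate pools, so a p-value here reflects just the spread from library to library. The behavioural field calls the libraries titled RES susceptible and those titled SUS resilient, and nothing resolves whether field or title is meant. The names RES and SUS follow the titles, and no difference is read as one of susceptibility. All libraries have the same strain, and the genotype field of the labels only repeats the group names.

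Brain capillaries are tubes of endothelial cells sealed by tight junctions, with pericytes on their outer face and a shared basement membrane of laminins and type IV collagens. Arterioles carry contractile smooth muscle in place of pericytes. Endothelial cells of the brain form the blood-brain barrier through junction proteins, efflux pumps and nutrient carriers, and they depend on receptors for vascular endothelial growth factor (VEGF) and angiopoietin. In the nucleus accumbens, as elsewhere in the brain, these cells deliver glucose to neurons and limit which drugs enter the tissue, a limit that cocaine readily crosses.

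Endothelial promoters are known to use factors of the ETS family, which bind a GGAA core. For 24 of the 36 genes a promoter window was found in RefSeq tables of the build GRCm38.p6. Shown are 3 windows, of Flt1, Slco1a4 and Eng, which recur in the results below and all hold the letters AGGAAG. Cldn5, Kdr and Mfsd2a recur as well, and their windows do not hold these letters. Each is the 250 bases before the RefSeq transcription start, 5′ to 3′ on the gene's strand, with AGGAAG, or CTTCCT where the match lies on the other strand, in capitals. Flt1 lies on the minus strand (chr5:147726012-147726261), Slco1a4 on the minus strand (chr6:141856221-141856470) and Eng on the plus strand (chr2:32646345-32646594).
Flt1: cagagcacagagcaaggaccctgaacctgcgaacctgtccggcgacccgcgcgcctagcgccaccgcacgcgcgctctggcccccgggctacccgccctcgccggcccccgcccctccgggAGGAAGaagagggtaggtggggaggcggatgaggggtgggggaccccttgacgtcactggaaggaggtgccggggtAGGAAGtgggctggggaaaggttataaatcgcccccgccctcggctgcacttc
Slco1a4: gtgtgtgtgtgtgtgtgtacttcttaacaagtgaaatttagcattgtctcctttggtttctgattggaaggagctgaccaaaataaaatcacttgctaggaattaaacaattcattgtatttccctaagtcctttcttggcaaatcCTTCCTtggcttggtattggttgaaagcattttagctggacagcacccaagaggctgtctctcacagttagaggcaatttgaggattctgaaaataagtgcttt
Eng: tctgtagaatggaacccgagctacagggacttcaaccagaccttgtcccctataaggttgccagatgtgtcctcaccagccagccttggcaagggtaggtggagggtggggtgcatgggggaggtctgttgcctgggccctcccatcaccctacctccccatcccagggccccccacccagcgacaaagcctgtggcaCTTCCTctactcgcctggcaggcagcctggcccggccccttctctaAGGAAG
The Flt1 matches lie 129 to 124 and 53 to 48 bases before the start. The single match of Slco1a4 lies 104 to 99 bases before it, and those of Eng 52 to 47 and 6 to 1 bases before it. AGGAAG on either strand was found in 11 of the 24 genes with a window, all 11 of them among the 17 endothelial genes, and in 32.3% of the 27025 genes of the RefSeq table. The other letters searched, on both strands, were CGGAAG (1 of 24 genes against 15.3%), the GC box GGGCGG (12 of 24 against 35.4%) and CCAAT (9 of 24 against 37.5%). A CArG box, the site bound by serum response factor in smooth muscle genes, was found in 0 of the 24 windows and 1.62% of all genes. Of the smooth muscle genes only Acta2 had a window, so Tagln and Myh11 were not searched. With up to 1 C or G allowed inside the box it was found in 5 of 24, which were Acta2, Egfl7, Eng, Kdr and Slco1a4, and in 9.78% of all genes. The end of GGGCGG and the start of CGGAAG can share letters. A match describes letters in a window, not a bound site.

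Total counts ran from 4471675 to 11155730 per library, and mitochondrial genes took 9.09% to 28.7% of them. TMM scaling factors (trimmed mean of M values) were 0.743 to 1.58 and largest for RES replicate 3. The 36 genes together held 3857 to 12369 counts, 0.0863% to 0.149% of a library. The sorted type was checked by its own marker. Chat was between 0.877 and 7.87 times the background defined below, the highest in SUS replicate 2, and 0 of 10 cholinergic genes averaged more than 3 times it. Markers of other cells varied widely between libraries: the microglial receptor Cx3cr1 ran from 1.44 to 68.9 times background, the astrocyte transporter Slc1a2 from 11.6 to 90.5 and the medium spiny neuron gene Ppp1r1b from 4.12 to 20.4.

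Most vascular genes stood little above background in these libraries. Levels are given as count density, the counts per kb of exon, divided by that of 1092 olfactory receptor genes in the same library, which were at 6.09 to 21.2 counts per kb. A second yardstick was a set of 36 autosomal genes that are specific to other tissues and silent in brain, whose median was 1.55 to 2.29 times background per library and whose 90th percentile was 2.56 to 3.40. Of the 36 vascular genes, 15 averaged more than 3 times background over the 9 libraries, against 2 of 36 silent genes and 26.3% of 21883 protein-coding nuclear genes. Above 5 times background were 4 vascular and 0 silent genes, between 3 and 5 were 11 and 2, between 2 and 3 were 13 and 17, between 1 and 2 were 6 and 14, and under 1 were 2 and 3. So 21 of the 36 vascular genes averaged no more than 3 times background, where most silent genes also lie. In such libraries fewer vessel cells and less RNA per cell cannot be told apart.

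**Figure D1:**
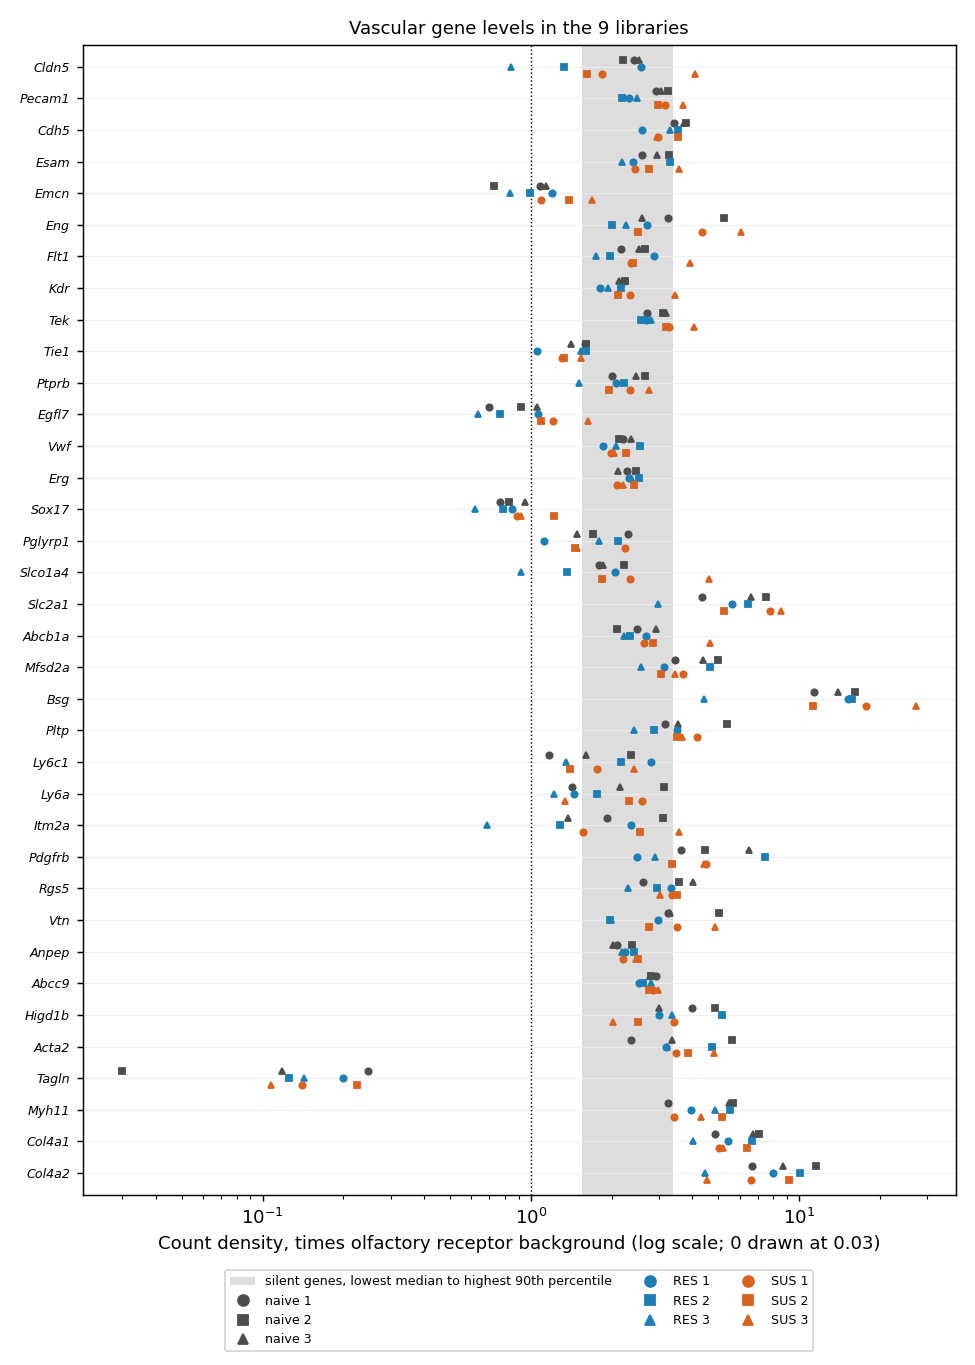
Level of each of the 36 genes in each of the 9 libraries, as count density in multiples of the olfactory receptor background on a log axis (color is the group, shape the replicate number, and a value of 0 is drawn at the left). The gray band runs from the lowest library median (1.55) to the highest library 90th percentile (3.40) of 36 silent genes, and only Bsg, Slc2a1, Col4a1 and Col4a2 average above 5.

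Among the junction and surface proteins, 2 of 6 averaged more than 3 times background. Cldn5, the main tight junction protein of brain endothelium (ENSMUSG00000041378, GRCm38 chromosome 16, 18776847 to 18778262), stood at 2.42, 2.20 and 2.53 times background across naive libraries, 2.58, 1.32 and 0.841 across RES libraries, and 1.85, 1.62 and 4.09 across SUS libraries. It was highest in SUS replicate 3 and below background in RES replicate 3, and the 3 groups overlapped. Cdh5, the cadherin of endothelial adherens junctions (chromosome 8, 104101625 to 104144511), varied least of the 6 relative to its mean, at 3.31 ± 0.396 times background (SD, n = 9). Eng, a co-receptor for transforming growth factor beta family ligands (chromosome 2, 32646595 to 32682669), averaged 3.44 and reached 6.06 in SUS replicate 3. Pecam1, an adhesion molecule between endothelial cells, averaged 2.89 (2.19 to 3.70), and the junction protein Esam 2.83 (2.18 to 3.55). The surface sialomucin Emcn stayed at 0.729 to 1.68 times background, below the 90th percentile of the silent genes in all 9 libraries.

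The receptors of endothelial growth factors lay between 1.05 and 4.05 times background. Flt1, which encodes VEGF receptor 1 (chromosome 5, 147561604 to 147726011), was at 2.17, 2.66 and 2.52 times background across naive libraries, 2.88, 1.97 and 1.75 across RES libraries, and 2.36, 2.39 and 3.91 across SUS libraries. Kdr, which encodes VEGF receptor 2, averaged 2.27 and likewise had its highest value, 3.45, in SUS replicate 3. Tek, the receptor for angiopoietins, averaged 3.06 (2.57 to 4.05). Its relative Tie1 averaged 1.44 (1.05 to 1.60), and the receptor phosphatase Ptprb, which acts on Tek, 2.22 (1.51 to 2.77). Tie1 and Ptprb were above the silent 90th percentile in 0 of 9 libraries.

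Of the endothelial secreted proteins and transcription factors, 0 of 5 averaged more than 3 times background. The clotting protein Vwf averaged 2.16 ± 0.206 (SD, n = 9) and the ETS factor Erg 2.31 ± 0.154, both within the range of the silent genes and nearly level across libraries. Egfl7, a secreted endothelial protein, averaged 1.01, the transcription factor Sox17 0.869 and Pglyrp1, a peptidoglycan recognition protein, 1.74. All 5 were above the silent 90th percentile in 0 libraries. Exons of other genes cover 16.8% of the exonic bases of Sox17 and 11.2% of those of Egfl7. The strand setting of the counting is not given, so the overlap may have raised or lowered these counts.

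Transporters and carriers of the barrier held the highest endothelial levels, with 4 of 6 above 3 times background. Bsg, the basigin glycoprotein that chaperones monocarboxylate transporters and is also made by many other cells, was highest of all 36 genes (chromosome 10, 79704491 to 79711969). It was at 11.4, 16.2 and 14.0 times background across naive libraries, 15.1, 15.8 and 4.41 across RES libraries, and 17.8, 11.3 and 27.2 across SUS libraries. The low value of RES replicate 3 and the high one of SUS replicate 3 set its range. Slc2a1, the glucose transporter GLUT1, which astrocytes also carry, averaged 6.12 and followed the same extremes, 2.98 in RES replicate 3 and 8.59 in SUS replicate 3. Mfsd2a, a lipid transporter that keeps endothelial transcytosis low, averaged 3.70 (2.57 to 4.97), and the phospholipid transfer protein gene Pltp 3.57 (2.41 to 5.39), with 19.3% of its exonic bases shared with Ctsa on the opposite strand.

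Slco1a4, the organic anion transporter of the barrier (ENSMUSG00000030237, chromosome 6, 141805440 to 141856199), was at 1.79, 2.23 and 1.85 times background across naive libraries, 2.05, 1.36 and 0.920 across RES libraries, and 2.35, 1.85 and 4.61 across SUS libraries. Only SUS replicate 3 exceeded 3 times background. Abcb1a, the efflux pump P-glycoprotein (chromosome 5, 8660077 to 8748575), showed the same single high library, 4.65 in SUS replicate 3 against 2.10 to 2.92 in the other 8. Its close paralog and an overlapping transcript on the opposite strand, which covers 10.1% of its exonic bases, make its count uncertain.

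Of the other endothelial surface and membrane genes, 0 of 3 averaged more than 3 times background. Ly6c1 and Ly6a, surface proteins of a family whose members share much sequence, averaged 1.89 and 1.93. The membrane protein gene Itm2a averaged 2.05, from 0.683 in RES replicate 3 to 3.56 in SUS replicate 3.

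Of the mural genes, 6 of 9 averaged more than 3 times background. Pdgfrb, the receptor through which platelet-derived growth factor recruits pericytes, was at 3.62, 4.47 and 6.52 times background across naive libraries, 2.48, 7.46 and 2.90 across RES libraries, and 4.49, 3.34 and 4.40 across SUS libraries. Its highest values were in naive replicate 3 and RES replicate 2, which were also the highest libraries for 12 astrocyte genes (medians of 16.4 and 22.6 times background, 4.26 to 12.5 in the other 7), and the part of astrocytes was not tested. Rgs5, a regulator of G protein signalling typical of pericytes, averaged 3.18 (2.31 to 4.03). Vitronectin, encoded by Vtn, averaged 3.29 (1.97 to 5.02), and Higd1b, a small mitochondrial protein gene used as a pericyte marker, 3.47 (2.02 to 5.16).

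Abcc9, the SUR2 subunit of ATP-sensitive potassium channels, was the most even gene of the list relative to its mean at 2.79 ± 0.139 times background (SD, n = 9). The aminopeptidase Anpep averaged 2.28 ± 0.171 and exceeded the silent 90th percentile in 0 libraries.

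The smooth muscle genes were split, with 2 of 3 above 3 times background and the other close to 0. Myh11, smooth muscle myosin heavy chain (chromosome 16, 14194535 to 14291372), averaged 4.61 (3.24 to 5.64) and was above the silent 90th percentile in all 9 libraries. Acta2, smooth muscle actin (chromosome 19, 34241090 to 34255590), averaged 3.84 (2.37 to 5.61). Tagln, the actin-binding protein transgelin (chromosome 9, 45929619 to 45936058), had 8, 0 and 5 counts across naive libraries, 5, 2 and 5 across RES libraries, and 5, 8 and 4 across SUS libraries, an average of 0.145 times background. Counts of Tagln were thus few in every library, and its average lay below the lowest average of a silent gene (0.746). Exons of genes on the opposite strand cover 67.9% of its exonic bases. With the strand setting of the counting not given, these counts cannot show whether Tagln was absent.

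Both collagens stood above the 90th percentile of the silent genes in all 9 libraries. Col4a2 (chromosome 8, 11312805 to 11449287) was at 6.67, 11.5 and 8.69 times background across naive libraries, 7.99, 10.0 and 4.44 across RES libraries, and 6.63, 9.15 and 4.53 across SUS libraries. It was lowest in RES replicate 3 and SUS replicate 3, so unlike most endothelial genes it was not high in SUS replicate 3. Its partner Col4a1, which starts from the same region in the opposite direction (chromosome 8, 11198423 to 11312826), averaged 5.72 (4.02 to 7.09).

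Most endothelial genes shared a single high library, though Cdh5, Vwf, Erg, Tie1 and Mfsd2a were among those highest elsewhere. In CPM, counts scaled to a common library size with the TMM factors, the 25 genes summed to 647, 664 and 650 across naive libraries, 670, 529 and 541 across RES libraries, and 661, 613 and 1014 across SUS libraries. Against the median of the other 8 libraries, SUS replicate 3 had a median ratio of 1.5 over the endothelial genes, 17 of 25 being more than 1.25-fold higher there. Over all tested genes that ratio had a median of 0.998, and 32.6% were more than 1.25-fold higher. SUS replicate 3 was the highest library for 15 of the 25 endothelial genes, 4 of 9 mural genes and 0 of 2 collagens, and for 24.8% of all tested genes. Without Bsg and Slc2a1, which other cells make, the endothelial sum was 835 in SUS replicate 3 and 441 to 569 in the other 8 libraries.

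Mural genes and collagens did not share that height to the same extent in value. The mural sum was 289 CPM in SUS replicate 3 and 227 to 283 CPM in the other 8, a median ratio of 1.23 over 8 tested genes. The collagen sum was 155 CPM there and 136 to 238 CPM elsewhere. At the low end, RES replicates 2 and 3 had median ratios of 0.816 and 0.830 over the endothelial genes, with 12 of 25 below 0.8 in each. Of all tested genes 28.5% and 29.9% were below 0.8 there.

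SUS replicate 3 was also the highest library for all 12 microglial genes. Their summed level was 1915, 3560 and 299 CPM across naive libraries, 1942, 109 and 185 across RES libraries, and 4352, 261 and 6225 across SUS libraries, and none of the 12 was at 0 in all libraries. The microglial sum was 1915 CPM or more in 5 libraries, and in the 4 of them other than SUS replicate 3 the endothelial sum was 647 to 670 CPM. In the 4 libraries with a lower microglial sum, the endothelial sum was 650 CPM (naive replicate 3), 529 and 541 CPM (RES replicates 2 and 3) and 613 CPM (SUS replicate 2). The part of microglia in the endothelial values was not tested. Genes of vascular fibroblasts, another cell of the vessel wall, stayed at medians of 1.28 to 1.72 times background, within the silent range.

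**Figure D2:**
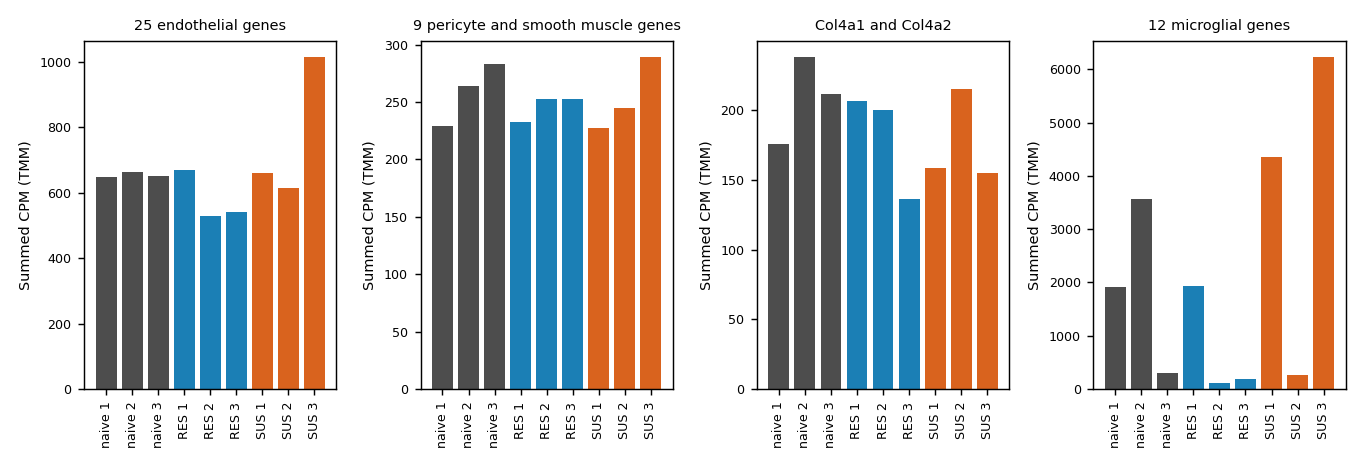
Summed CPM (scaled by TMM, linear axis from 0) of the 25 endothelial genes, the 9 pericyte and smooth muscle genes, the collagens Col4a1 and Col4a2 and 12 microglial genes in each library, with 1 bar per library. The endothelial bar of SUS replicate 3 (1014) is above the other 8 (529 to 670), while its collagen bar (155) is among the lowest.

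**Figure D3:**
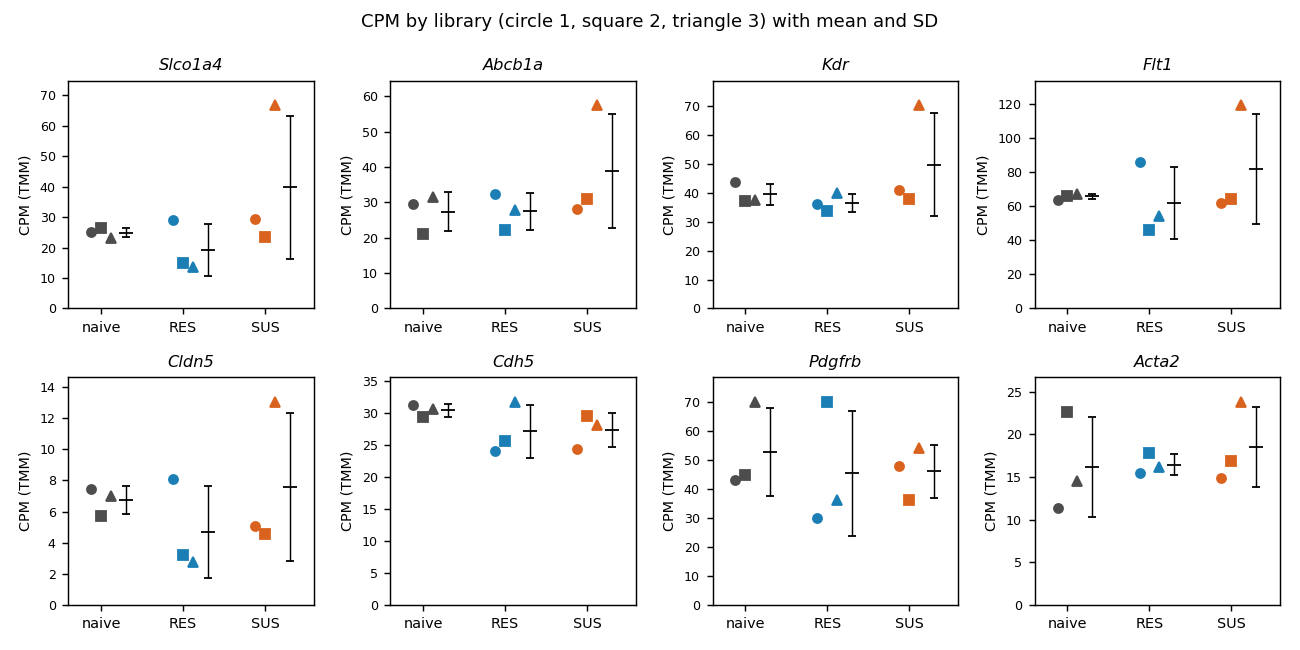
CPM of 8 vascular genes in each library, with the replicate as circle, square or triangle and the mean and SD of each group (n = 3) beside the points. For Slco1a4, Abcb1a, Kdr, Flt1, Cldn5 and Acta2 the SUS mean is raised by replicate 3, while Cdh5 has no such library. Pdgfrb is highest in naive replicate 3 and RES replicate 2 (70.2 CPM in each).

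RES against naive compares one of the cocaine groups with drug-naive mice. No vascular gene passed the test, and most were fitted slightly lower in RES: 7 of the 35 tested genes higher and 28 lower, with a median log2 fold change of -0.14. The split was 12 and 23 without RES replicate 2. Over all 39210 tested genes the median was -0.02, and 40.4% of the protein-coding ones were higher. The edgeR quasi-likelihood test with Benjamini-Hochberg adjustment called 0 genes (percent called 0), with 361 (0.921%) at unadjusted p under 0.05, and DESeq2 and limma-voom also called 0, with 264 and 1671. None of the 35 vascular genes was among the 361, and 0 to 3 were at that level with 1 library left out, the 3 without RES replicate 1. Tagln was too low to be tested.

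The endothelial genes split 3 higher and 22 lower (median -0.14), the mural genes 4 and 4 (-0.02) and the collagens 0 and 2 (-0.20). All 6 barrier transport genes and all 5 growth factor receptor genes were fitted lower, at medians of -0.27 and -0.10. The smallest differences were -0.0047 and -0.085, so the transport list held a gene that was nearly level. Vtn had the smallest p, with 14.4, 18.7 and 13.1 CPM in naive and 13.3, 6.87 and 9.23 in RES. Its groups overlapped only by RES replicate 1, and the fitted log2 difference was -0.63 (SE 0.304, unadjusted p = 0.0570, edgeR adjusted p = 1). Eng differed by -0.56 (SE 0.358), from 29.4 ± 9.21 to 19.7 ± 5.23 CPM (SD, n = 3), and Ly6a by -0.49 (SE 0.333). Those with the smallest p on the other side were Ly6c1 (0.41, SE 0.346), Anpep (0.14, SE 0.216) and Erg (0.13, SE 0.213). With 1 library left out Ly6c1 lay between 0.079 (without RES replicate 1) and 0.62 (without RES replicate 3), Anpep between 0.074 (without naive replicate 3) and 0.23 (without RES replicate 2), and Erg between 0.057 and 0.23 (without the same libraries as Anpep). Eng was -0.30 and Ly6a -0.28 without naive replicate 2.

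Pecam1 was the one vascular gene whose RES and naive libraries did not overlap. It was at 39.9, 37.2 and 37.3 CPM in naive and 31.9, 23.4 and 35.4 in RES, all 3 RES values lying below the lowest naive one. Of all tested genes, 2.82% were lower in RES without overlap and 3.31% higher, so 1 of 35 is near the background. The fitted log2 difference of Pecam1 was -0.33 (95% interval -0.89 to 0.22). Microglial genes were fitted lower too, all 12, at a median of -1.42, and so were all 10 oligodendrocyte genes, at -0.66. Their part in the vascular values was not tested.

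SUS against naive gave the opposite tilt, and it rested on a single library. Of the 35 genes 23 were fitted higher and 12 lower, with a median log2 fold change of 0.07 against 0.02 over all genes, and endothelial genes split 18 and 7 (median 0.26). Without SUS replicate 3 the split was 13 and 22 with a median of -0.04, and the endothelial median was -0.03. The edgeR test called 0 genes (percent called 0), with 1225 (3.12%) at unadjusted p under 0.05 and none of the 35 vascular genes among them (0 to 3 with 1 library left out, the 3 without SUS replicate 1). DESeq2 and limma-voom called 0, with 931 and 3225. Mural genes split 5 and 3 (median 0.03), and both collagens were fitted lower (median -0.23).

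Egfl7 had the smallest p. It was at 5.47, 6.05 and 7.40 CPM in naive and 8.45, 7.76 and 13.2 in SUS, so that all 3 SUS libraries exceeded the naive ones, at levels near background. The fitted log2 difference was 0.62 (SE 0.291, unadjusted p = 0.0504, edgeR adjusted p = 1) and 0.34 without SUS replicate 3. Tek was the other gene without overlap, at 27.9, 26.9 and 29.6 CPM in naive and 29.9, 29.7 and 43.0 in SUS, with the SUS replicates 1 and 2 barely above the highest naive library. Over all tested genes 3.85% were higher in SUS without overlap and 4.15% lower.

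Slco1a4 was at 25.1, 26.3 and 23.3 CPM in naive and 29.4, 23.5 and 66.7 in SUS. Its fitted log2 difference was 0.68 (SE 0.373) with all libraries and 0.09 without SUS replicate 3. Emcn differed by 0.51 (SE 0.278), by 0.26 without that library and by 0.32 without naive replicate 2. On the lower side stood Higd1b (-0.50, SE 0.281, from 6.63 ± 1.42 to 4.57 ± 0.934 CPM, SD, n = 3), Mfsd2a (-0.26, SE 0.216) and Col4a2 (-0.35, SE 0.353). Col4a2 was at -0.18 without SUS replicate 3, -0.20 without naive replicate 2 and -0.61 without SUS replicate 2, and Mfsd2a at -0.17 without SUS replicate 2. All 12 microglial genes (median 0.90) and all 10 oligodendrocyte genes (0.46) were fitted higher in SUS, and their part in these values was not tested.

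SUS against RES held the widest vascular differences, all of them short of the adjusted threshold. Of the 35 genes 29 were fitted higher in SUS and 6 lower, with a median log2 fold change of 0.30 against 0.01 over all tested genes, of whose protein-coding members 56.6% were higher. Endothelial genes split 22 and 3 (median 0.42), with all 6 junction genes, all 5 receptor genes and all 6 transport genes on the higher side. The smallest differences in these lists were 0.0082, 0.0011 and 0.014, so each list held a gene that was nearly level. Mural genes split 6 and 2 (0.08) and the collagens 1 and 1 (-0.03). Without SUS replicate 3 the split was 22 and 13, the median 0.08 and the endothelial median 0.11.

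The edgeR test called 0 genes (percent called 0, smallest adjusted p 0.870), with 2227 (5.68%) at unadjusted p under 0.05, and DESeq2 and limma-voom called 0, with 1885 and 3367. Among the 2227 were 4 of the 35 vascular genes: Slco1a4, Eng, Egfl7 and Vtn. That count depended on single libraries: it was 0 without RES replicate 2, 1 without SUS replicate 3 and 2 without RES replicate 3, but 6 without SUS replicate 1 and 7 without either RES replicate 1 or SUS replicate 2. Slco1a4 was at 29.1, 15.0 and 13.5 CPM in RES and 29.4, 23.5 and 66.7 in SUS. The groups overlapped, since SUS replicate 2 lay below RES replicate 1. The fitted log2 difference was 1.05 (SE 0.377, 95% interval 0.25 to 1.86, unadjusted p = 0.0137, edgeR adjusted p = 0.870), and 0.46 without SUS replicate 3.

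Eng was at 24.2, 14.0 and 20.9 CPM in RES and 34.2, 20.2 and 55.4 in SUS. SUS replicate 2 lay within the RES range, and the fitted log2 difference of 0.89 (SE 0.356, unadjusted p = 0.0246, edgeR adjusted p = 0.870) was 0.46 without SUS replicate 3. Egfl7 was at 8.41, 4.73 and 5.20 CPM in RES, and its difference of 0.67 (SE 0.293, unadjusted p = 0.0361, edgeR adjusted p = 0.870) was 0.40 without that library. Vtn, named because it is the fourth gene of that count and chosen after its values were seen, was at 13.9, 11.1 and 22.2 CPM in SUS and differed by 0.67 (SE 0.299, unadjusted p = 0.0401, edgeR adjusted p = 0.870). Slco1a4, Eng and Vtn were higher in every library with a microglial sum of 1915 CPM or more than in any other library. The lowest of the former against the highest of the latter was 25.1 against 23.5 CPM for Slco1a4, 24.2 against 20.9 for Eng and 13.3 against 13.1 for Vtn. Egfl7 was not divided in this way, and the part of microglia was not tested.

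On the lower side Higd1b differed by -0.51 (SE 0.281), with 5.61, 7.52 and 6.50 CPM in RES and 5.63, 4.21 and 3.87 in SUS, RES replicate 1 and SUS replicate 1 being level. Myh11 (-0.15, SE 0.307) and Erg (-0.10, SE 0.210) had intervals of -0.80 to 0.51 and -0.55 to 0.35, and their values ran from -0.26 (without SUS replicate 2) to 0.00012 (without SUS replicate 1) and from -0.21 (without RES replicate 2) to -0.035 (without RES replicate 3) with 1 library left out. Pecam1 was again the gene without overlap, at 38.2, 36.7 and 52.0 CPM in SUS against 31.9, 23.4 and 35.4 in RES. Over all tested genes 3.41% were higher in SUS without overlap and 4.22% lower. Other cell types moved between these groups as well: all 12 microglial genes were fitted higher in SUS (median 2.37, 7 at unadjusted p under 0.05) and all 10 oligodendrocyte genes (median 1.13, 5 at unadjusted p under 0.05). Their part in the vascular values was not tested.

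**Figure D4:**
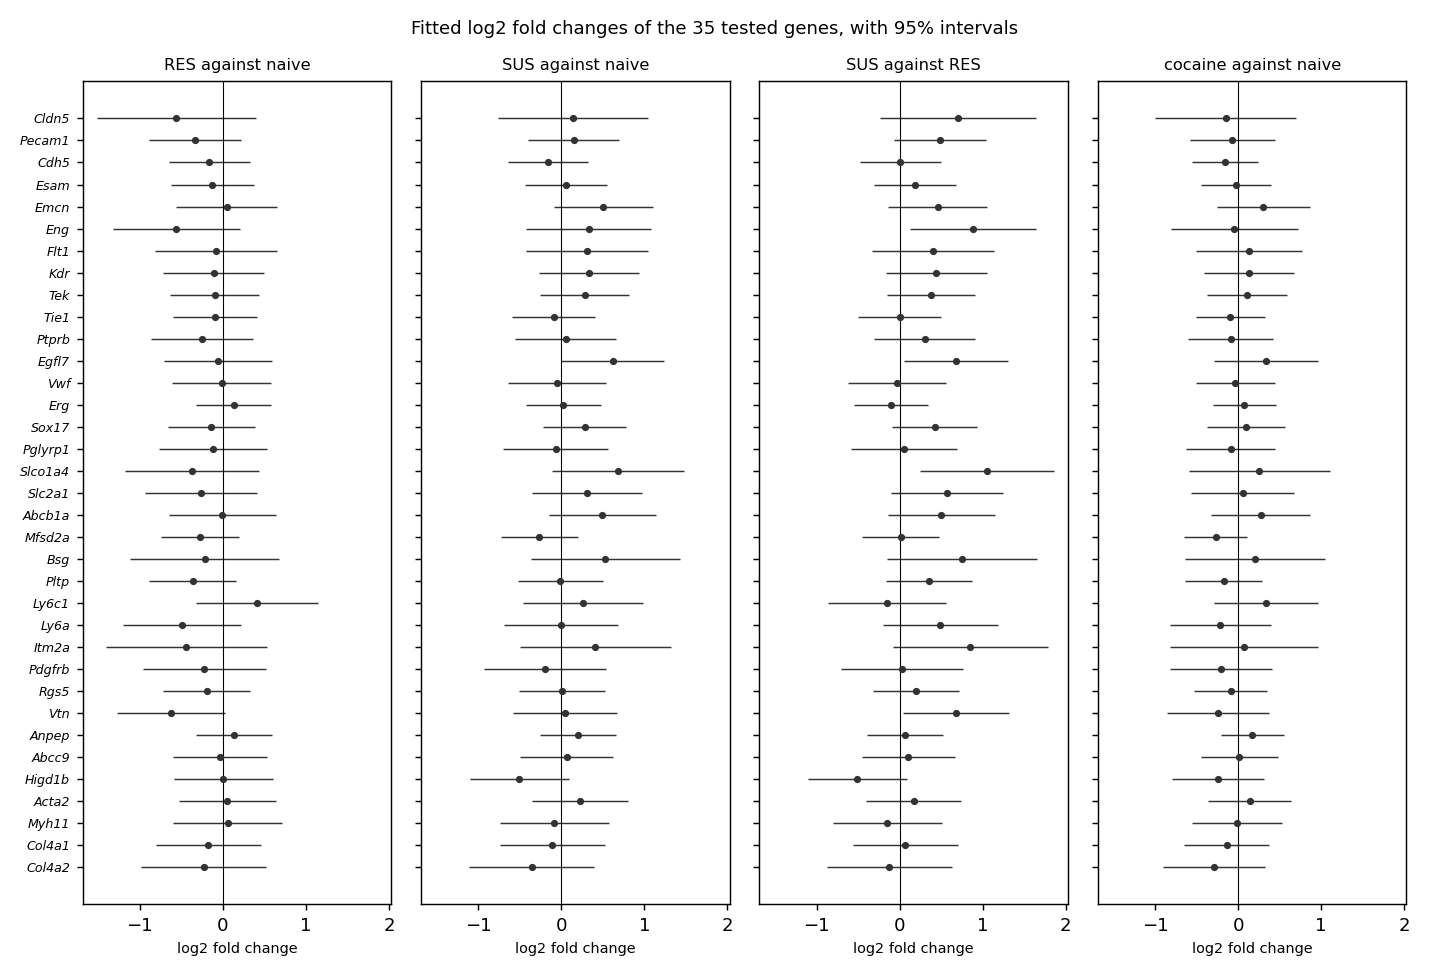
Fitted log2 fold changes (points, horizontal axis) of the 35 tested genes with their 95% intervals (lines) in the 4 comparisons. Only for SUS against RES do the intervals of 4 genes (Slco1a4, Eng, Egfl7 and Vtn) lie wholly to the right of 0, and none passes adjustment over 39210 genes.

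Cocaine against naive joins the 6 RES and SUS libraries, which is the contrast that the conflicting labels do not touch. Vascular genes were split evenly, 16 higher and 19 lower, with a median log2 fold change of -0.03 against 0.01 over all genes. Endothelial genes split 13 and 12 (median 0.06), mural genes 3 and 5 (-0.05) and the collagens 0 and 2 (-0.21). Without SUS replicate 3 the split was 8 and 27 with a median of -0.11. The edgeR test called 0 genes (percent called 0), with 541 (1.38%) at unadjusted p under 0.05 and 0 vascular genes among them, and DESeq2 and limma-voom called 0, with 484 and 1697. In 0 of the 35 genes were the cocaine and naive libraries without overlap, where 0.617% of all genes were higher and 0.553% lower.

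Mfsd2a had the smallest p of these 35 genes. It was at 16.9, 20.6 and 19.3 CPM in naive and at 13.3 to 18.0 in the 6 cocaine libraries, with 4 of them below the lowest naive value. The fitted log2 difference was -0.27 (SE 0.178, unadjusted p = 0.150, edgeR adjusted p = 1). Col4a2 (-0.29, SE 0.286) and Higd1b (-0.24, SE 0.258) were next on that side, and Emcn (0.30, SE 0.261), Egfl7 (0.34, SE 0.294) and Ly6c1 (0.33, SE 0.295) on the other. Single libraries moved these: leaving out SUS replicate 3 gave 0.13 for Egfl7 and 0.14 for Emcn. With naive replicate 2 left out, Emcn was at 0.12, Col4a2 at -0.13, Higd1b at -0.15 and Ly6c1 at 0.52. Ly6c1 was at 0.17 and Higd1b at -0.14 without naive replicate 1, Ly6c1 at 0.19 without RES replicate 1, and Higd1b at -0.44 with naive replicate 3 left out and -0.15 with SUS replicate 3 left out. The interval of Cldn5 ran from -1.0 to 0.70 and that of Slc2a1 from -0.57 to 0.68, so differences inside these ranges remain possible. Such an interval is not a limit of detection. The 3 comparisons with naive share the naive libraries and are not independent.

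Genes that act on or around these cells were taken from 5 lists of 49 genes, all tested: ligands of the vascular receptors, Wnt signalling of the barrier, Notch signalling of vessels, the junction scaffold, and vascular laminins with other basement membrane proteins. None passed the edgeR test in any comparison. In RES against naive 15 were fitted higher and 34 lower (median log2 fold change -0.07), and in SUS against naive 24 and 25 (-0.01). In SUS against RES 33 were higher and 16 lower (0.08), where 56.6% of protein-coding genes were higher, and in cocaine against naive 18 and 31 (-0.04). At unadjusted p under 0.05 in SUS against RES were 2 of the 49 genes, a smaller share than the 5.68% of all tested genes.

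Among the ligands, Vegfa, the principal VEGF, was at 8.57 to 29.6 times background (mean 20.5). It was at 171, 220 and 248 CPM across naive libraries, 155, 218 and 84.1 across RES libraries, and 217, 123 and 134 across SUS libraries. The highest cocaine library (218) lay above naive replicate 1 and below the other 2 naive libraries, and the log2 difference of cocaine against naive was -0.45 (SE 0.335). Pdgfb, the endothelial ligand of Pdgfrb, was at 29.8, 20.8 and 18.7 CPM in RES and 51.1, 25.6 and 57.8 in SUS, with a log2 difference of 0.96 (SE 0.365, unadjusted p = 0.0194, edgeR adjusted p = 0.870). Vegfb, a ligand of Flt1, did not overlap between RES (13.3, 14.6 and 9.36 CPM) and naive (15.1, 22.1 and 15.3), at a log2 difference of -0.48 (SE 0.296). It was the 1 gene of 49 that was lower in RES without overlap, where 2.82% of all tested genes were.

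In the junction scaffold list F11r, the junctional adhesion molecule JAM-A, had the widest fitted difference. It was at 26.1, 44.7 and 8.70 CPM across naive libraries, 25.8, 5.15 and 9.10 across RES libraries, and 60.3, 12.1 and 86.0 across SUS libraries. The same 5 libraries that were high in microglial genes were high in F11r, which leukocytes and microglia also carry, and the part of microglia was not tested. Its log2 difference in SUS against RES was 1.98 (SE 0.681, unadjusted p = 0.0108, edgeR adjusted p = 0.870). The Notch target Heyl did not overlap between SUS (11.2, 8.76 and 7.98 CPM) and RES (11.9, 15.2 and 11.7), at a log2 difference of -0.47 (SE 0.226), and was 1 of 49 genes lower in SUS in that way against 4.22% of all tested genes. In the basement membrane list Lama4, the laminin chain of endothelial basement membranes, had no overlap between SUS (41.6, 40.5 and 53.0 CPM) and naive (39.5, 34.5 and 39.8), at 0.24 (SE 0.249), as 1 of 49 against 3.85% of all tested genes. These shares are near or below the background. The Wnt list held no gene without overlap in any comparison, its widest named difference being that of the Wnt co-receptor Lrp5 in SUS against RES (0.67, SE 0.345).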

How the data were processed

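Raw counts of 52636 Ensembl mouse genes in 9 libraries were used as the authors deposited them: whole numbers with different totals and no scaling. The build GRCm38 and the tools DESeq, DESeq2, FastQC, HTSeq and STAR 2.5.2b are named, without order or settings, per the submitters' processing notes. Strand setting and annotation release are not given in the sources used here. GENCODE mouse release M21 supplied positions, exonic lengths and exon overlaps and lacked 147 of the identifiers.

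After filterByExpr and TMM scaling, 39210 genes were tested by the edgeR quasi-likelihood method (R 4.3.3 with edgeR 4.0.16 and limma 3.58.1), and p-values were adjusted over all of them by Benjamini-Hochberg at 0.05. One model of 3 groups gave the 3 pairwise comparisons, and a second model set the 6 cocaine libraries against the 3 naive ones. The steps were run on simulated counts in which RES and SUS were changed alike against naive. No difference between SUS and RES was simulated, and the outcome is not reported here. Each standard error comes from a fold change and its F value, and each 95% interval from the t quantile of the fit. Depth limits the precision: the 36 genes had 3857 to 12369 counts per library. Spearman correlations between libraries were 0.904 to 0.973 over 36 pairs.

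The genes, the lists and the rules were chosen with earlier results of these data known. Fold changes with a test are given for the 3 genes with the smallest p in each direction per comparison, and up to 2 genes of each of the 5 surrounding lists may be named. Genes without overlap between groups, and those whose values describe a library, were named after their values were seen. Same-numbered libraries deviated with correlations of -0.217 to 0.212, so the numbers were not taken as pairs. Alternatives were DESeq2 1.42.0, limma-voom with sample quality weights, relative log expression (RLE) size factors, no filter, the replicate block and leaving out each library.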

Additional observations from a re-analysis of the deposited data

Results flagged for a closer look

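In 5 of the 36 genes 1 of the 6 cocaine libraries stood far from the other 5, the gap to its nearest neighbour being more than 0.625 of the whole range, and in all 5 it was SUS replicate 3. The rule has a nominal rate of about 1 in 20 genes, but the share of all tested genes that it marks was not counted. SUS replicate 3 was the highest of all 9 libraries for 24.8% of all tested genes, but that is not the share marked by this rule. Whether 5 of 36 is more or less than usual is thus not known. Slco1a4 was at 66.7 CPM there against 13.5 to 29.4 in the other 5 libraries, and Abcb1a at 57.4 CPM against 22.1 to 32.4. Kdr was at 70.4 CPM against 33.7 to 41.0, Esam at 23.0 CPM against 13.6 to 16.3 and Acta2 at 23.8 CPM against 14.8 to 17.8. Acta2 was nearly as high in naive replicate 2, at 22.7 CPM, a library that the rule leaves out. Of the 5, Acta2 is a smooth muscle gene and the others are endothelial. The same library was the highest for all 12 microglial genes, whose part was not tested.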

How the results depend on the processing

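No vascular gene was called in any of the 15 settings tried, where the smallest adjusted p of one (edgeR) was 0.106, for Slco1a4 in SUS against RES without SUS replicate 2, its other settings giving 0.580 to 1, and the smallest of any gene was 0.0579. The median log2 fold change of the vascular genes in SUS against RES was 0.048 with limma-voom and sample quality weights, and 0.084 to 0.39 with 1 library left out, the lowest without SUS replicate 3. With 1 library left out it was -0.23 to -0.08 for RES against naive, -0.04 to 0.20 for SUS against naive and -0.11 to 0.03 for cocaine against naive. Myh11 in SUS against RES ranged from -0.26 to 0.00012 with 1 library left out, the latter, which has the opposite sign, without SUS replicate 1, and was -0.30 with limma-voom. With the replicate block, which the numbers do not justify as a pairing, 0 genes were called in each comparison and the medians were -0.14 (RES) and 0.06 (SUS) against naive, 0.28 between SUS and RES, and -0.03 for the cocaine libraries together. The median level of the 36 genes was 2.78 times background and 1.47 times the median of the silent genes. The 15 genes above 3 times background were 14 to 15 with 1 library left out, 28 above 2 times, 4 above 5 times and 3 above 3 times the silent median. The last count and the counts with libraries left out were added after seeing the data. The other 335 values of named genes under the alternatives kept their sign and their side of the threshold. Depth limits Cldn5, Egfl7, Pglyrp1, Ly6a, Itm2a and Tagln most, each of which had 20 or fewer counts in at least 1 library. The causes of these shifts were not tested.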

Other observations

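Vascular fibroblasts and the choroid plexus with ependyma, whose genes mark cells next to vessels or ventricles, were looked at by 10 and 8 genes. In SUS against RES 7 of the 10 fibroblast genes were fitted higher and 3 lower (median log2 fold change 0.22), and in RES against naive 5 and 5 (0.03). For the choroid plexus list the splits were 5 and 3 (0.07) and 4 and 4 (0.03). The edgeR test with Benjamini-Hochberg adjustment called none of them, and none was at unadjusted p under 0.05 in these comparisons.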
